A study of Mus musculus with 4 samples.

Results

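The genes described here are 10 epithelial keratins, taken by symbol from the 52636 genes of a whole-lung RNA sequencing table. They are the simple keratins Krt7, Krt8, Krt18 and Krt19, the basal layer keratins Krt5, Krt14, Krt15 and Krt17, and the suprabasal mucosal keratins Krt4 and Krt13. All 10 had a row in the table. The tissue was the whole lung of C57BL/6 mice, taken before birth on embryonic day 14.5. The control group (n = 2) is labelled wild type, and the Yap CKO group (n = 2) carries a conditional knockout of Yap that the study's title places in the epithelium. The labels name no Cre driver and no deleted exons, and do not say whether the 2 samples of a group came from separate embryos, so the p-values measure the spread between these samples only.

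Keratins are the intermediate filament proteins of epithelial cells. A filament forms only when a type I chain pairs with a type II chain, so the genes work as partners: Krt8 (type II) with Krt18 (type I), Krt7 (type II) with Krt19 (type I), Krt5 (type II) with Krt14 or Krt15 (type I), and Krt4 (type II) with Krt13 (type I). Single-layered epithelia, such as the tubes of the embryonic lung, carry the simple pairs. The Krt5 and Krt14 pair marks basal cells of stratified epithelia and of the adult trachea, and the Krt4 and Krt13 pair marks the layers above them in the esophagus. The mesothelium that covers the lung also carries simple keratins.

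Depth ranged from 17756301 to 21333878 reads counted to genes, of which 2608 to 4438 fell on the 10 keratins. Values are normalized counts, that is reads divided by 1 factor per library. A gene with no read could still have had up to 3 reads, which is 2.80 to 3.51 normalized counts; such floors cover counting error only. Each pair of values is given in the order of replicate 1 and 2. The epithelial lung factor Nkx2-1 was present in every library, from 2569 to 3333. Yap1 stood at 5686 and 3467 in the controls and 3209 and 4483 in Yap CKO, so the groups overlapped. The Yap1 count sums reads from epithelium and all other lung cells, so it does not check the labels, and every direction given rests on the groups as labelled. Heart muscle markers differed between libraries of 1 group, with sums over 8 genes of 1703 and 42441 in the controls and 9522 and 1764 in Yap CKO.

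One measurement needs its sequence beside it. Krt8 shares most of its coding sequence with Krt8-ps, a processed copy on another chromosome that the annotation lists as a pseudogene. Krt8 (ENSMUSG00000049382) has 9 exons on chromosome 15 (101996698 to 102004482, minus strand, mm10), and Krt8-ps (ENSMUSG00000109325) has 1 exon of 945 bases on chromosome 7 (23357125 to 23358069, plus strand). Aligned over 941 bases without a gap, all within the 1470 coding bases of Krt8, the 2 sequences were 98.6% identical and differed at 13 bases, and the longest identical run was 299 bases. The first pair of lines shows the first 80 bases of the coding sequence, which are the same in both genes, at chr15:102004160-102004239 in exon 1 of Krt8 and chr7:23357125-23357204 in the copy. The second pair shows the 80-base stretch of Krt8 coding sequence within 1 exon that holds the most differences, 3 of them in capitals, at chr15:102004042-102004121 (exon 1) and chr7:23357243-23357322. All 4 are from GENCODE M21, written 5′ to 3′ on the strand of the gene.
Krt8, identical stretch: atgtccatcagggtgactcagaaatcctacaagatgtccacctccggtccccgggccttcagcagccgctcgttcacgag
Krt8-ps, identical stretch: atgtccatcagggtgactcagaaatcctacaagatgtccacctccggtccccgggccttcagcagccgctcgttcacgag
Krt8, most different stretch: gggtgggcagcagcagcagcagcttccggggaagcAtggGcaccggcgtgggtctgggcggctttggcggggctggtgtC
Krt8-ps, most different stretch: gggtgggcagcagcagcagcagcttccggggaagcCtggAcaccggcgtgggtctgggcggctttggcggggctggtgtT

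Many reads were counted to the copy. Krt8 had 861 and 643 normalized counts in the controls and 535 and 547 in Yap CKO. Krt8-ps had 701, 478, 469 and 535 in the same order. The copy therefore took 44.9% and 42.6% of the sum of both genes in the controls, and 46.7% and 49.4% in Yap CKO. Per kilobase of exon the copy stood higher than Krt8, at a mean over the 4 libraries of 578 against 330 normalized counts. How many of these reads came from Krt8 messenger RNA was not tested, so the level of Krt8 alone is uncertain.

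**Figure D1:**
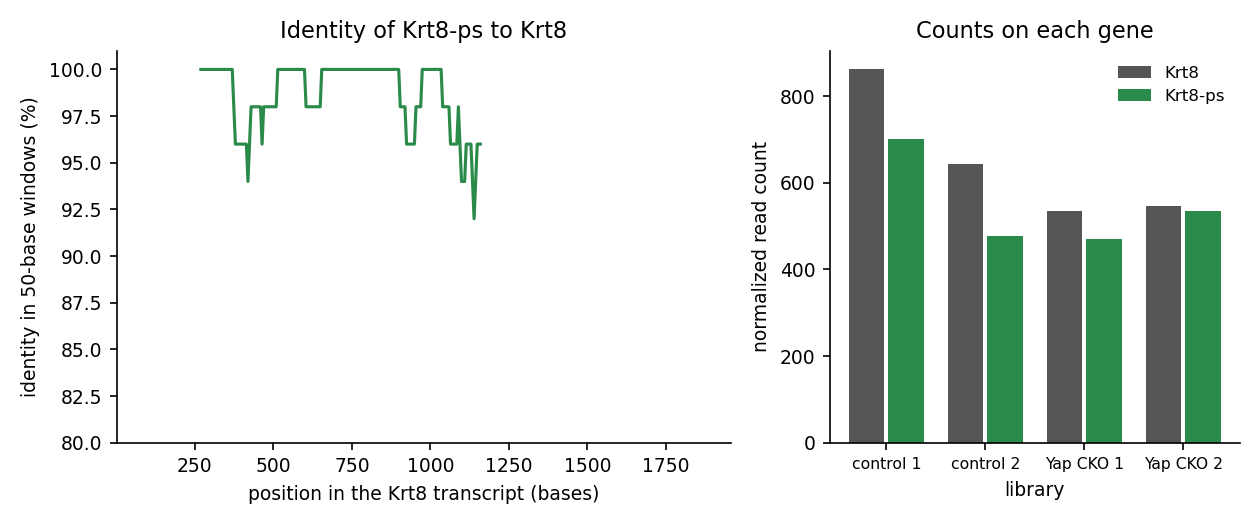
Left, identity of Krt8-ps to Krt8 (%, vertical axis, which starts at 80) in 50-base windows along the Krt8 transcript (horizontal axis, bases). Right, normalized read counts of both genes in each library. The copy spans transcript bases 244 to 1184 at 98.6% identity and holds 42.6% to 49.4% of the summed counts.

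The other members share less sequence with other genes. Of all 50-base windows of the main coding transcript, 29.7% occurred in another annotated transcript for Krt8, 14.4% for Krt14 (mostly shared with Krt16), 12.2% for Krt5 (mostly with Krt6a) and 3.99% for Krt17 (mostly with Krt14). The share was below 1% for Krt7, Krt15 and Krt18, and no window of Krt19, Krt4 or Krt13 was shared. Krt16 had no read and Krt6a at most 1 read in a library, while Krt14 and Krt17 were both counted, so reads between those 2 could be split.

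Nearly all counts of the 10 members came from the simple keratins. These made up 97.8% and 94.6% of the summed counts of the 10 members in the controls and 93.6% and 94.1% in Yap CKO. Per kilobase of exon, as a mean over the 4 libraries, Krt18 stood at 530 normalized counts, Krt8 at 330, Krt19 at 299 and Krt7 at 147. The place of Krt7 depends on the length used, since its annotated exons cover 7049 bases and its coding sequence 1371. Per kilobase of coding sequence Krt7 came first at 756, ahead of Krt18 (600), Krt19 (459) and Krt8 (440). Per kilobase of the main coding transcript it stayed last at 253, below Krt8 (330), Krt19 (352) and Krt18 (530). On each scale every basal and suprabasal member stood far lower, led by Krt15 at 43.3 per kilobase of exon.

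**Figure D2:**
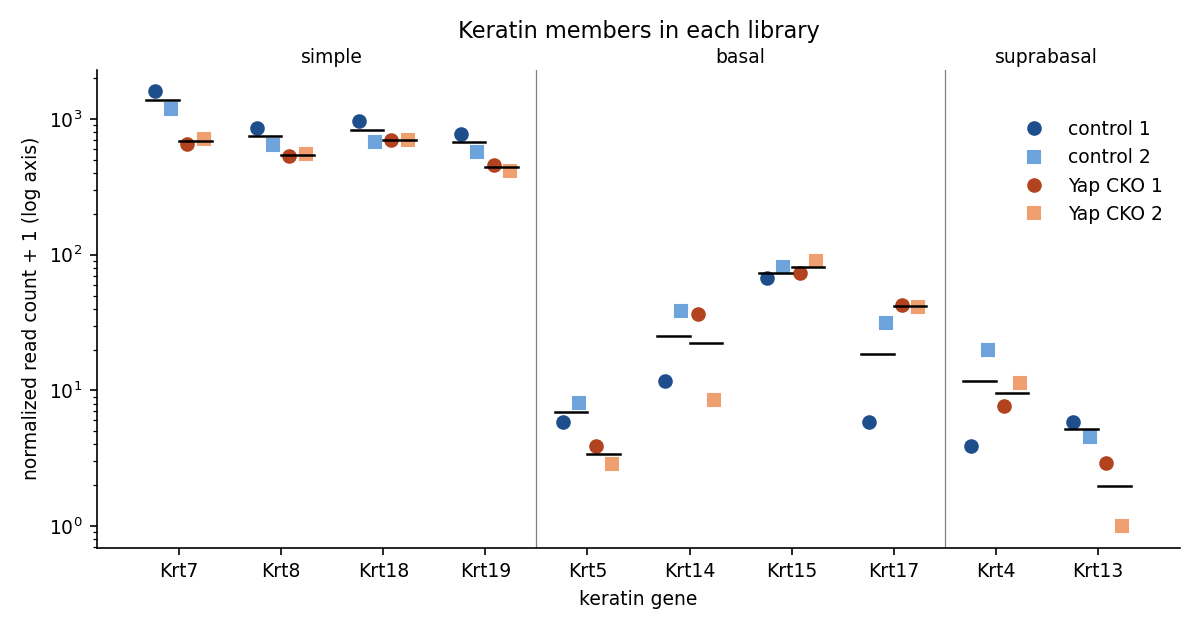
Normalized read count plus 1 (vertical log axis) of the 10 keratins, 1 point per library, with a black line at each group's mean (n = 2). Krt7 lies at 1599 and 1180 in the controls and at 656 and 712 in Yap CKO, while Krt5 and Krt13 stay below 10 in every library.

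Krt7, a type II keratin of simple ducts and of the lung epithelium, fell in Yap CKO. ENSMUSG00000023039, on chromosome 15 (101411043 to 101430313, plus strand), was measured at 1599 and 1180 normalized counts in the controls and at 656 and 712 in Yap CKO. Both knockout libraries were lower than both controls. The group means were 1389 ± 296 against 684 ± 39.9 (SD, n = 2), which is a log2 change of -1.01 ± 0.16 (SE), and the adjusted p was 0.0334 (limma over all 19472 genes kept). In whole-lung RNA, fewer cells of a type and less RNA per cell cannot be told apart. The fold was 0.498 with a 95% interval of the log2 change from -1.38 to -0.63. Krt7 was the single call among the 7 members that passed the filter on low values; over all genes tested the call rate was 2.33%, and 1.15% for falls. The call was lost without Yap CKO 1 or Yap CKO 2, at log2 changes of -0.95 and -1.07. Nearly all calls over the whole table were lost in those fits, so this loss is not particular to Krt7. edgeR on the recovered reads gave an adjusted p of 0.0335 for Krt7, its single call among the 7 (2.07% of all genes), and DESeq2 called Krt7 and Krt19 (5.33% of all genes).

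The stretch before the start of Krt7 is shown because it is the one member called. It is the RefSeq window for GRCm38.p6, the assembly also called mm10, on the plus strand at chr15:101412153-101412401, up to the base before the annotated start of the main coding transcript; the outermost annotated start of the gene lies further upstream. Motifs found would be in capitals; there are none.
Krt7 upstream: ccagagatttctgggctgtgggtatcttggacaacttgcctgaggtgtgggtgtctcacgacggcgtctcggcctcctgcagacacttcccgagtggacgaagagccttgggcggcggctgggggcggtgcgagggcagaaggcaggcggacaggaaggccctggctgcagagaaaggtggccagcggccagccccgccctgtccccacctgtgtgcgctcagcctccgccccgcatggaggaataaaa
The letters searched on both strands were GGAATG, bound by the TEAD factors through which Yap acts, the TATA box TATAAA and the AP-1 motif TGANTCA. Windows of 300 bases were found for 6 members (Krt5, Krt7, Krt8, Krt13, Krt14 and Krt18). The TEAD letters stood in the window of Krt14 and in none of the other 5, against 14.7% of all 32851 windows, and that of Krt14 lies at an inner start 1518 bases past the start of its main coding transcript. TATAAA stood in the window of Krt8 (13.6% of all windows), at the start of that window's transcript, which lies 140 bases past the start of the main coding transcript. TGANTCA stood in both windows of Krt13 (7.81% of all windows), the second of which belongs to a start 989 bases past that of the main coding transcript. These matches are descriptions of letters and not of bound sites.

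Krt19, the type I partner of Krt7 and a marker of airway and duct epithelium, was lower in both knockout libraries without passing the test. It stood at 776 and 569 in the controls and 461 and 416 in Yap CKO (ENSMUSG00000020911, chromosome 11, 100140810 to 100148665). The groups did not overlap. The log2 difference was -0.60 ± 0.17 (SE), with an interval from -1.01 to -0.20 and an adjusted p of 0.13 (limma). DESeq2 gave an adjusted p of 0.0493, just inside its threshold.

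Krt8 and Krt18, the first keratin pair to appear in the embryo, differed less. Krt8, at 861 and 643 against 535 and 547, had both knockout libraries lower, a log2 difference of -0.46 ± 0.16 (SE) and an adjusted p of 0.187 (limma). With the reads of Krt8-ps added, the sums were 1562 and 1121 in the controls and 1004 and 1082 in Yap CKO, and the difference became -0.34 (adjusted p = 0.319, limma), an alternative chosen after seeing the data. Krt18 stood at 970 and 679 in the controls and 696 and 701 in Yap CKO (ENSMUSG00000023043, chromosome 15, 102028180 to 102032027). Its groups overlapped, at -0.22 ± 0.17 (adjusted p = 0.558, limma) with an interval from -0.63 to 0.20, and without control 1 its sign turned (0.040). The genes of this pair are neighbours, 23697 bases apart and on opposite strands, although all other type I members lie on chromosome 11.

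The controls differed from each other in all 4 simple keratins together. Control 1 exceeded control 2 by 1.36-fold for Krt7, 1.34-fold for Krt8, 1.43-fold for Krt18 and 1.36-fold for Krt19. The ratio of Yap CKO 1 to Yap CKO 2 was nearer 1, from 0.921 (Krt7) to 1.11 (Krt19). Epcam, a surface protein of epithelial cells, also differed between the controls (1.25-fold), whereas the adhesion gene Cdh1 did not to that extent (1.02-fold). Without control 2, 5 members were called, namely falls of Krt7, Krt8, Krt18 and Krt19 and a rise of Krt17, in a fit that called 12.6% of all genes. Without control 1 the count was 1, again Krt7, at the same 12.6% of all genes.

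Set against Epcam within each library, the controls lay closer together. This ratio was chosen after the values were seen. Epcam itself was at 2676 and 2145 in the controls and 2461 and 2734 in Yap CKO. Per 100 counts of Epcam, Krt7 had 59.8 and 55.0 in the controls and 26.6 and 26.0 in Yap CKO. Krt8 had 32.2 and 30.0 against 21.7 and 20.0, and Krt19 had 29.0 and 26.6 against 18.7 and 15.2. Krt18 had 36.3 and 31.7 against 28.3 and 25.6. All 4 were lower in both knockout libraries on this scale. Epcam had a mean of 2410 in the controls and 2598 in Yap CKO, so dividing by it shifts genes towards lower values in Yap CKO. No share over all genes was computed for the ratios to Epcam or Cdh1. Per 100 counts of Cdh1 the groups did not overlap for Krt7 alone (41.7 and 31.4 against 21.7 and 22.4), and they overlapped for Krt8, Krt18 and Krt19. With 2 libraries against 2 an exact permutation test cannot go below p = 0.333, so these ratios are given as values.

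The make-up of the simple keratin counts is likewise given as values with no test. Krt7 gave 38.0% and 38.4% of the summed counts of the 4 genes in the controls and 27.9% and 30.0% in Yap CKO. Krt18 gave 23.1% and 22.1% in the controls and 29.7% and 29.5% in Yap CKO. Krt8 gave 20.5% and 20.9% against 22.8% and 23.0%, and Krt19 lay between 17.5% and 19.6% in all 4 libraries. The shares are of counts, not scaled by length, and each depends on the other genes in the sum, so a fall of Krt7 raises the other shares. Of the sum per kilobase of exon, Krt7 gave 12.9% and 13.1% in the controls and 8.47% and 9.25% in Yap CKO. Krt18 gave 38.3% and 37.1% against 44.1% and 44.7% on that scale. There the groups overlapped for Krt8, between 24.8% and 25.7%, and Krt19 was lower in Yap CKO (23.8% and 24.1% against 22.6% and 20.5%). The higher share of Krt8 and the level share of Krt19 therefore depend on the scale.

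**Figure D3:**
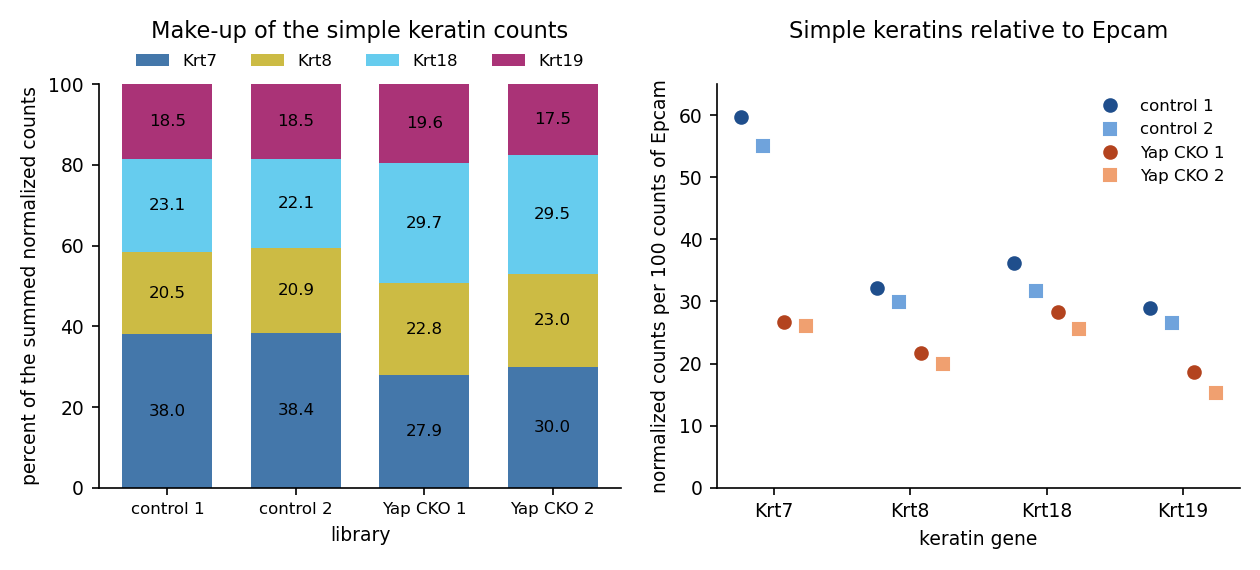
Left, percent of the summed normalized counts of the 4 simple keratins taken by each gene (stacked bars, 1 per library). Right, each gene per 100 counts of Epcam, 1 point per library. Krt7 takes 38.0% and 38.4% of the sum in the controls and 27.9% and 30.0% in Yap CKO.

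The balance within partner pairs was also followed without a test. The log2 ratio of Krt8 to Krt18 per kilobase of exon was -0.62 and -0.53 in the controls and -0.83 and -0.80 in Yap CKO. That of Krt7 to Krt19 was -0.88 in both controls and -1.42 and -1.15 in Yap CKO. In both pairs the type II chain was lower against its type I partner in each knockout library. Summed over the 10 members per kilobase of exon, type II genes came to 589 ± 115 in the controls and 378 ± 11.1 in Yap CKO, and type I genes to 1005 ± 194 and 807 ± 20.7 (SD, n = 2). Krt7 stood at 147 per kilobase of exon but 756 per kilobase of coding sequence, so which type came higher depends on the length used. The Krt8 values in these ratios and sums leave out the reads counted to Krt8-ps.

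**Figure D4:**
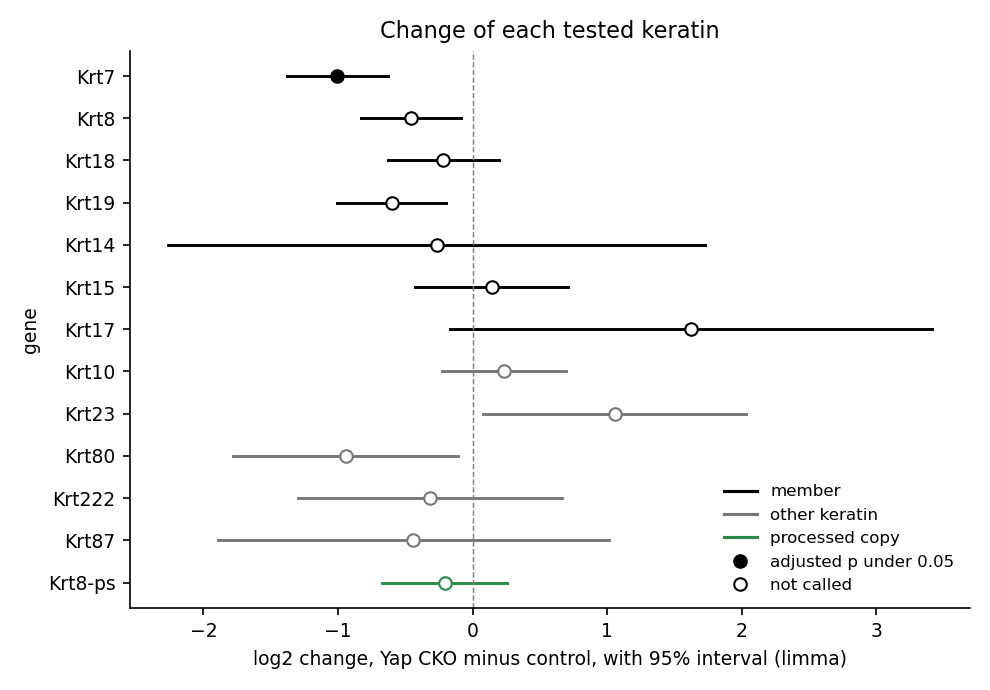
Estimated log2 difference (Yap CKO minus control, limma) with its 95% interval for each tested keratin and for Krt8-ps (horizontal axis); filled points have an adjusted p under 0.05. Krt7 at -1.01 is the one filled point, and Krt14 and Krt17 have the widest intervals among the members.

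The basal keratins were low, and none of the 3 that were tested passed. Krt15, a type I keratin of basal and of immature epithelial cells (chromosome 11, 100131758 to 100135928), was the highest of them. It stood at 65.9 and 79.5 in the controls and 72.1 and 88.6 in Yap CKO. The groups overlapped, with a log2 difference of 0.14 ± 0.24 (SE), an interval from -0.43 to 0.71 and an adjusted p of 0.794 (limma). Krt17, a type I keratin of basal and injured epithelium (chromosome 11, 100256217 to 100261029), was at 4.85 in control 1, 30.4 in control 2, and 41.3 and 40.1 in Yap CKO. Both knockout libraries were higher, and control 1, with 5 reads, stood apart. The log2 difference was 1.62 ± 0.75 (SE) with an adjusted p of 0.307 (limma). It was 2.83 without control 2 (adjusted p = 0.00021) and 0.41 without control 1 (adjusted p = 0.469), so its size rests on control 1.

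Krt14, the type I partner of Krt5 in basal cells (chromosome 11, 100203162 to 100207548), varied within both groups. It was at 10.7 and 37.4 in the controls and 35.6 and 7.46 in Yap CKO. The 2 libraries high in Krt14, control 2 and Yap CKO 1, were also those with the larger sums of heart muscle markers, and the part of other tissue in this was not tested. The log2 difference was -0.27 ± 0.83 (SE) with an adjusted p of 0.895 (limma), and its sign turned when control 2 (0.59) or Yap CKO 2 (0.79) was left out. Krt5, the type II keratin of basal cells (chromosome 15, 101707070 to 101712898), stayed below the filter with 5 and 6 reads in the controls and 3 and 2 reads in Yap CKO. Its values were 4.85, 7.02, 2.88 and 1.86. Krt14 and Krt15 were therefore counted beside very few reads of their type II partner, and the log2 ratio of Krt5 to Krt15 per kilobase of exon lay between -5.88 and -3.82.

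Trp63, the transcription factor of basal cells, was at 77.5 and 108 in the controls and 139 and 135 in Yap CKO, with an adjusted p of 0.233 (limma). Of the 7 airway basal markers, 4 of which are these basal keratins, 6 were tested. Limma and edgeR called none, and 2 had an unadjusted p under 0.05 (18.9% of all genes by limma). By limma 4 had positive and 2 had negative log2 values. DESeq2 called Ngfr (5.33% of all genes), which was at 367 and 518 in the controls and lower in Yap CKO, at 256 and 229. The sum over the 7 was 546 and 788 in the controls and 561 and 524 in Yap CKO, and Ngfr gave the largest part of it. At this stage the basal label therefore describes where these keratins are known from, not a cell type shown here.

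The suprabasal pair was near the limit of detection. Krt4 (chromosome 15, 101918535 to 101924735) had 3 and 16 reads in the controls and 7 and 11 in Yap CKO, or 2.91, 18.7, 6.73 and 10.3 normalized counts. Krt13 (chromosome 11, 100117327 to 100121566) had 5 and 3 reads in the controls and 2 and 0 in Yap CKO. Differences in this pair were not detectable at this depth. The stratified squamous products Sprr3 and Ivl were equally low, with Sprr3 at 0 in every library and Ivl at 5.81, 0, 4.81 and 0. Other squamous products were not this low, such as Sfn, from 84.3 in control 1 to 140 in Yap CKO 2, and Sbsn, from 51.5 in control 2 to 119 in Yap CKO 1.

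Across the 7 tested members 5 were lower and 2 higher, with a median log2 change of -0.27 beside -0.0050 over all genes tested. In 3 of the 7 both knockout libraries lay below both controls, a pattern seen in 25.6% of all genes tested, and in 1 (Krt17) both lay above, seen in 25.2%. No member was called higher, against 1.19% of all genes. An unadjusted p under 0.05 was reached by 3 of 7 (Krt7, Krt19 and Krt8), against 18.9% of all genes.

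The annotation holds 43 other keratin genes, and none of the 5 that were tested was called by limma, edgeR or DESeq2. By limma 2 of them, Krt23 and Krt80, had an unadjusted p under 0.05. Krt10, a type I keratin of differentiated epidermis that reaches other tissues at low level, led with 95.9 and 88.9 in the controls and 109 in both Yap CKO libraries (0.23, adjusted p = 0.569, limma). Krt23, a type I keratin of simple glandular epithelia, was at 24.2 and 14.0 in the controls and at 49.0 and 31.7 in Yap CKO (1.05, adjusted p = 0.234, limma). Krt80, the nearest keratin gene upstream of Krt7 at a distance of 40880 bases, was at 31.0 and 25.7 in the controls and 14.4 and 14.0 in Yap CKO. Both knockout libraries were lower, at a log2 difference of -0.94 ± 0.35 (SE) and an adjusted p of 0.217 (limma). On the other side of Krt7, 724 bases away, Krt87 had 9.69 and 14.0 against 14.4 and 4.66, and Krt222 differed by -0.32 (adjusted p = 0.728, limma). Of the rest, 24 had some reads with means of at most 9.48 and 14 had none, among them Krt16.

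Genes that anchor keratin filaments gave 1 call. Of 11 tested desmosome and linker genes 1 fell by limma, against 1.15% of all genes, 10 did not pass and 8 had negative values. The median log2 change was -0.42, an unadjusted p under 0.05 was reached by 5 (18.9% of all genes), and edgeR called none. Pkp4, an armadillo protein of cell junctions, fell from 3422 and 3492 in the controls to 2444 and 2482 in Yap CKO (-0.49 ± 0.09 SE, adjusted p = 0.0433, limma). That call was lost under equal totals (0.0598), with the replicate block (0.0658), with edgeR (0.0513), without the filter (0.108) and without the trend (0.166). It was also lost without Yap CKO 1 and without Yap CKO 2, where nearly all calls over the whole table were lost. The cytolinkers envoplakin (Evpl, -0.69, adjusted p = 0.0892, limma) and periplakin (Ppl, -0.52, adjusted p = 0.155, limma) did not pass, and nor did Dsc3, a desmocollin of stratified epithelium, with 13.6 and 11.7 against 56.7 and 33.6 (adjusted p = 0.0826, limma). Pkp2, of the same list, had 181 and 319 in the controls against 124 and 127 in Yap CKO and did not pass either (-0.93, adjusted p = 0.144, limma). Evpl, Ppl, Dsc3 and Pkp2 were picked after their values were seen. None of 6 hemidesmosome and cytolinker genes passed with limma, edgeR or DESeq2, and 1 had an unadjusted p under 0.05. The smallest p were those of Cd151, an integrin-bound tetraspanin (-0.29, adjusted p = 0.239, limma), and the keratin linker plectin (Plec, 0.19, adjusted p = 0.372, limma). Of 13 other intermediate filament genes none passed with any of the 3 tools, 2 had an unadjusted p under 0.05 and 8 were higher. Those 2 were synemin (Synm, 0.75, adjusted p = 0.153, limma) and the muscle gene desmin (Des, -0.82, adjusted p = 0.205, limma). Nefh, among the 8 that were higher, had means of 8.35 in the controls and 16.2 in Yap CKO. It passed the filter only through Yap CKO, so its direction was fixed by the filter.

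Regulators of stratified epithelium moved in both directions. Of 15 tested, limma found that 2 rose (1.19% of all genes), 1 fell (1.15%) and 12 did not pass, with a median log2 change of 0.48. Among the 15, Tfap2a had means of 7.68 in the controls and 15.6 in Yap CKO. It passed the filter only through Yap CKO, so its direction was fixed by the filter. The epithelial ETS factor Ehf rose from 72.7 and 86.5 in the controls to 657 and 474 in Yap CKO (2.80 ± 0.21 SE, adjusted p = 0.00559, limma). Elf5, a related factor, rose from 429 and 409 to 840 and 714 (0.88 ± 0.13, adjusted p = 0.0251, limma). Sox2, which marks the conducting airways and is needed for their basal cells, fell from 374 and 381 to 194 and 208 (-0.91 ± 0.13, adjusted p = 0.0286, limma).

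Most products of squamous and suprabasal cells were low. Of 18 listed genes 11 stayed below the filter; of the 7 tested, limma called 2, both higher (1.19% of all genes tested), and the median was 0.79. Both called genes, Dmkn and Spink5, had control means under 10 and passed the filter only through the Yap CKO libraries. Their direction was therefore fixed by the filter, the count of calls supports nothing, and the median includes them. All 7 had positive values, and 5 had an unadjusted p under 0.05 by limma (18.9% of all genes), those 2 included. The rest of the 5, Sbsn, Sfn and Anxa8, had control means of 62.1, 87.8 and 57.4. They were higher in both knockout libraries without a call. Dmkn, the secreted epidermal protein dermokine, was at 4.85 and 9.36 in the controls and 107 and 75.5 in Yap CKO (3.54 ± 0.41 SE, adjusted p = 0.0148, limma). Spink5, which encodes a protease inhibitor of stratified epithelia, had 0 reads in both controls and 44.2 and 15.8 normalized counts in Yap CKO (adjusted p = 0.0266, limma, and 0.063 with edgeR). The mean of the Yap CKO libraries was 9.36-fold the mean that 3 reads in each control library would give. Neither call held without Yap CKO 1, without Yap CKO 2, without the filter or without the trend, settings that lost most calls over the whole table.

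General epithelial genes served as the setting for the keratins. Of 17 tested, 2 fell and 15 did not pass by limma, against falls in 1.15% of all genes, with a median of -0.17. An unadjusted p under 0.05 was reached by 10 of the 17 (18.9% of all genes), and DESeq2 called 5, adding Cldn6, Esrp2 and Foxa2 (5.33% of all genes). The tight junction gene Cldn4 fell from 916 and 781 in the controls to 399 and 396 in Yap CKO (-1.09 ± 0.12 SE, adjusted p = 0.0146, limma). The membrane protease gene Prss8 fell from 1033 and 914 to 591 and 570 (-0.74 ± 0.11, adjusted p = 0.0291, limma). Their calls, and those of Ehf, Elf5 and Sox2, were lost without Yap CKO 1, without Yap CKO 2 and without the trend. Nearly all calls over the whole table were lost under those settings. Without the filter Cldn4 (0.0581), Prss8 (0.0876), Elf5 (0.0808) and Sox2 (0.0774) lost theirs and Ehf did not (0.0295).

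The mesothelium was followed because it too carries simple keratins. Its 7 markers summed to 3945 and 5794 in the controls and to 3882 and 3145 in Yap CKO, and all 7 had negative log2 values. By limma 1 was called, a fall (1.15% of all genes), and 3 had an unadjusted p under 0.05 (18.9% of all genes). Muc16, a mucin of mesothelium, fell from 496 and 640 to 250 and 260 (-1.14 ± 0.16 SE, adjusted p = 0.0237, limma), and Upk3b was at 1843 and 2601 in the controls and 1705 and 1389 in Yap CKO. The sum was higher in control 2 than in control 1, while each simple keratin was higher in control 1. The part of mesothelium in the fall of Krt7 was not tested. Markers of other tissues differed too. All 7 smooth muscle genes had negative values, and 3 fell by limma and edgeR and 4 by DESeq2 (limma called 1.15% of all genes lower). Their sums were 19385 and 21394 in the controls and 7690 and 10912 in Yap CKO, and the 6 liver genes summed to 25.2 and 63.1 in the controls and 1626 and 895 in Yap CKO. Afp, the fetal liver secreted protein, rose from 17.4 and 43.3 to 1157 and 639 (adjusted p = 0.00858, limma). Of the other liver genes, Alb, Ttr and Apoa1 were called higher but passed the filter only through the Yap CKO libraries, and Serpina1a and Fga stayed below it. Intestinal markers summed to 126 and 91.2 in the controls and 199 and 144 in Yap CKO. Most of each sum was Lgals4, at 90.1 and 73.7 in the controls and 135 and 109 in Yap CKO. Among the markers below the filter, Krt20 was lower in both knockout libraries (15.5 and 5.85 against 2.88 and 3.73) and Vil1 was higher. The groups overlapped for Cdx1 and Cdh17. Limma called neither of the 2 tested intestinal genes, though both had an unadjusted p under 0.05, and nor did edgeR or DESeq2. Cdx2, an intestinal transcription factor, had 0 reads in both controls and 35.6 and 6.52 normalized counts in Yap CKO, so it too passed the filter only through Yap CKO. Skin markers summed to 126 to 175. The part of these tissues in the keratin values was not tested.

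**Figure D5:**
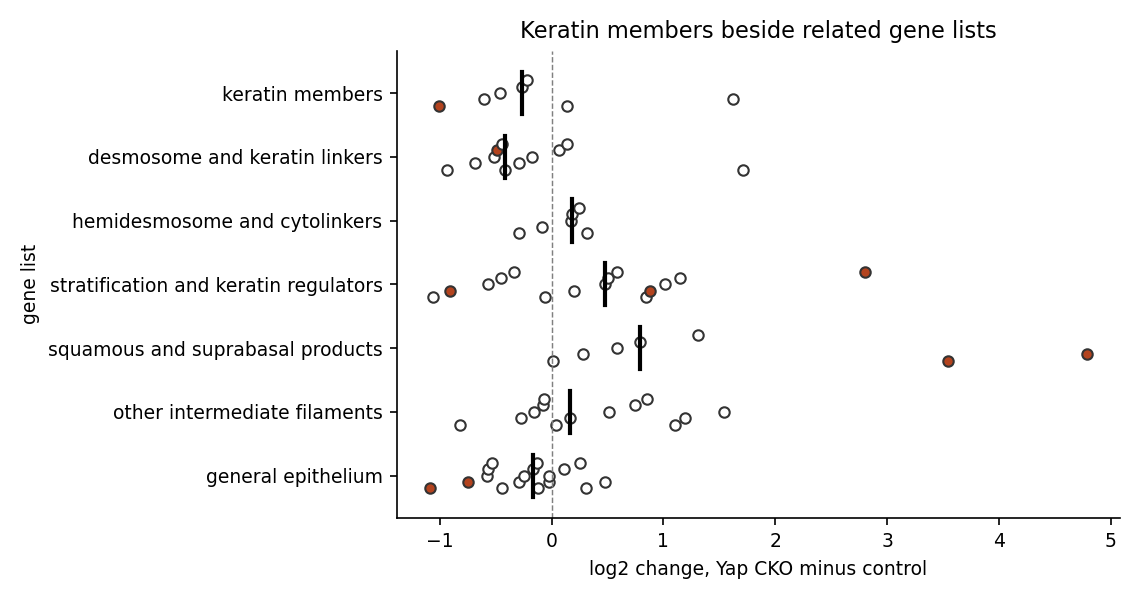
Each point is the limma log2 difference (Yap CKO minus control, horizontal axis) of 1 tested gene, for the keratin members and 6 related lists. Filled points have an adjusted p under 0.05, and the bar is the median of a list. The keratin members center on -0.27.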

How the data were processed

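The authors deposited 1 table of normalized read counts, a non-negative signal per gene in 4 libraries, with the build mm10 per the submitters' processing notes. Tools listed, without role or order, in the submitters' processing notes are edgeR 3.18.1, DESeq 1.16.0, featureCounts 1.5.0-p1 and Bowtie2 2.2.9; strand setting and annotation release are not given in the sources used here. Each library's values were whole multiples of 1 number (100% within 0.001 reads), so reads were recovered. Symbols and lengths came from GENCODE M21.

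Values were transformed to log2(normalized count + 1), genes with a mean of at least 10 were kept (19472), and Yap CKO was compared with control by limma 3.58.1 in R 4.3.3 with an intensity trend, two-sided, with Benjamini-Hochberg adjustment over all genes kept and calls at 0.05. The fit had 2 residual degrees of freedom and 4.54 from other genes. Each log2 change is on that scale and understates changes of low genes. edgeR 4.0.16 and DESeq2 1.42.0 on recovered reads were alternatives, as were other scalings, pseudocounts, filters, the replicate block and leaving out each library.

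The keratins and the gene lists were chosen with earlier results of these data known. Named were all 10 members, the other keratins that passed the filter, and per list up to 4 called genes, or the 2 with the smallest p where none was called; other genes were picked after their values were seen. Eppk1 and Znf750 had no row under those symbols.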

Additional observations from a re-analysis of the deposited data

How the results depend on the processing

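The number of genes called was 454 and varied with the setting. It was 56 without the filter, 6 without the intensity trend, 1037 with DESeq2, and from 2 to 2459 when 1 library was left out (leaving out control 1 gave 2459, control 2 gave 2458, Yap CKO 1 gave 2, and Yap CKO 2 gave 7). Each such fit leaves 1 group with a lone library, assumed to vary like the other group. Among the keratins 1 was called, against 0 without the filter or without the trend, 2 with DESeq2 (Krt7 and Krt19) and 0 to 5 when 1 library was left out. Krt7 kept its direction under every setting run, from -1.23 to -0.79 with 1 library left out, and had adjusted p of 0.105 without the filter and 0.147 without the trend. Of the 9 genes called among the members and the 6 related lists, 1 (Ehf) was still called without the filter and 0 were without the trend. Markers of other tissues that limma called, such as Muc16, Afp, Alb, Ttr and Apoa1, are outside these 9. They were not followed across these settings or with a library left out. With 1 library left out, signs turned for Krt18 (-0.47 to 0.040), Krt14 (-1.32 to 0.79), Krt15 (-0.0056 to 0.29), Krt87 (-1.16 to 0.28), Krt8-ps (-0.48 to 0.067) and Yap1 (-0.58 to 0.13, and 0.014 without Yap CKO 1). The turns came without control 1 for Krt18 (0.040), Krt8-ps (0.067) and Yap1 (0.13), without control 2 or Yap CKO 2 for Krt14 (0.59 and 0.79) and without Yap CKO 2 for Krt15 and Krt87. Over all single genes and settings, 298 values kept their direction and their side of the threshold, 40 lost a call, 11 gained one and 8 changed sign. The cause of these changes was not tested.

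The labels do not say that equal replicate numbers mark a pair, and same-numbered libraries deviated in opposite directions (correlation -0.36). With the replicate block 342 genes were called, Krt7 kept an adjusted p of 0.0397, and Sox2 (0.0503) and Pkp4 (0.0658) lost their calls. With the pairing crossed, chosen after seeing the data, 972 genes were called. Depth limits Krt4, Krt5 and Krt13, each with at most 16 reads in a library.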
